A study of Homo sapiens with 7 samples.

Results

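Open chromatin of human definitive endoderm was compared with that of pharyngeal foregut endoderm, using 3 of the 7 ATAC-seq libraries of the study. The 3 libraries were chosen by their labels alone, as both replicates of definitive endoderm (hDE) and the single library of pharyngeal foregut endoderm (hPFE). All came from the established human embryonic stem cell line H1, differentiated in culture, and the labels name no other genotype, treatment or time. The study also holds 2 libraries of undifferentiated cells (hESC) and 2 of anterior foregut endoderm (hAFE), the step between hDE and hPFE. ATAC-seq marks open chromatin by the places where the Tn5 transposase cuts DNA, and each library is a deposited list of peaks, with 298508 peaks in hPFE, 299043 in hDE replicate 1 and 299364 in hDE replicate 2. Labels mark the hESC and hDE libraries, but neither hAFE nor hPFE, as data analysed anew from another series, so stage and source cannot be told apart. There is 1 hPFE library, so no difference given here has a replicate check in hPFE and none was tested. Nothing in the labels says that the hDE replicates were separate cultures.

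Definitive endoderm is the germ layer that gives rise to the lining of the gut and the airways and to their glands. It forms under Nodal signalling and is marked by transcription factors such as EOMES, GSC, SOX17, FOXA2, GATA4 and GATA6. Its most anterior part becomes the foregut, and the pharyngeal part of the foregut forms the pouches from which the thymus and the parathyroid glands arise, under factors such as PAX1, PAX9, TBX1 and EYA1. Open regions away from gene starts often act as enhancers, which change between cell stages more than gene starts do.

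The gene starts below show a sequence feature that was frequent in gained gene starts. A gained region was one of the 50000 strongest regions of hPFE (called strict) without any deposited peak in either hDE library, and a lost region was strict in both hDE libraries without a peak in hPFE. Each line gives the 250 bases before a start listed in RefSeq for GRCh38.p14, 5′ to 3′ on the gene's strand, from position -250 to -1. The first 5 lie in gained regions and the last 2 in lost regions. Capitals mark letters of the binding motif of AP-1 (TGANTCA), of TEAD factors (GGAATG or its reverse complement) and of GATA factors (AGATAA or its reverse complement). The 7 were chosen after their values were seen.
MAB21L4: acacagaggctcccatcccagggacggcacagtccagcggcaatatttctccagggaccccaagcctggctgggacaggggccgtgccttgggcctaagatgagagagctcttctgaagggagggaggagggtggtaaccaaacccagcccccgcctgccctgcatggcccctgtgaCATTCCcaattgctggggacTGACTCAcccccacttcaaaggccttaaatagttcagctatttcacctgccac
SERPINB7: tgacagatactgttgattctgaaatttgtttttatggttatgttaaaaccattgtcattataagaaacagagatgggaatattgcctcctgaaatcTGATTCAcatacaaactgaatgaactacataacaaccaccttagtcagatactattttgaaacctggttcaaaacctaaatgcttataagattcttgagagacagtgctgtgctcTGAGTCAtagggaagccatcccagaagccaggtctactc
CPA4: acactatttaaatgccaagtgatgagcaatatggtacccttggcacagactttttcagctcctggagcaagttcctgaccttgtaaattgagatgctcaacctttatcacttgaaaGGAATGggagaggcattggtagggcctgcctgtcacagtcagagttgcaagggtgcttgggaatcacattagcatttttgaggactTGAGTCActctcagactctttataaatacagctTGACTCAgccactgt
RBPJ: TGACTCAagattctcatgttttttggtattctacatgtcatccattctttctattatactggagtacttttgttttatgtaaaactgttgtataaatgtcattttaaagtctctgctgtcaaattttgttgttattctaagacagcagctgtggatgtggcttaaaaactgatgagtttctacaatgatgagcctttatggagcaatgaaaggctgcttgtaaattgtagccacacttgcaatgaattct
SMAD3: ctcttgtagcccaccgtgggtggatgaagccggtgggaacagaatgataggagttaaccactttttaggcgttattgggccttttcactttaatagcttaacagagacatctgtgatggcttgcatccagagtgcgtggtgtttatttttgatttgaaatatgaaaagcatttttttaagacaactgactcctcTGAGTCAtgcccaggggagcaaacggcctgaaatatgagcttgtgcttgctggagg
OTX2: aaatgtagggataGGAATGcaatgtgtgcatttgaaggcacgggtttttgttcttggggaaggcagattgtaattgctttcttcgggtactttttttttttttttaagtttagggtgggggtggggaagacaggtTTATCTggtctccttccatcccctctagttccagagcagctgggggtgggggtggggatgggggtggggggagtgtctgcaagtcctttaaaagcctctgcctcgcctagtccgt
SAMD3: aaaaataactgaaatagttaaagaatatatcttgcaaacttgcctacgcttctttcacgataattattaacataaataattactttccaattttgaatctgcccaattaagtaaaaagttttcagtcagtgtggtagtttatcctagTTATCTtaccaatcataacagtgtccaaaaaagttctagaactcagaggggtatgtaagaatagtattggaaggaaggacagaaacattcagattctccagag

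These sequences lie at chr2:240896157-240896406, minus strand (MAB21L4), chr18:63775168-63775417, plus strand (SERPINB7), chr7:130292911-130293160, plus strand (CPA4), chr4:26342890-26343139, plus strand (RBPJ), chr15:67125492-67125741, plus strand (SMAD3), chr14:56805668-56805917, minus strand (OTX2) and chr6:130215888-130216137, minus strand (SAMD3). AP-1 letters begin at position -53 in MAB21L4, at -154 and -39 in SERPINB7, at -48 and -15 in CPA4, at -250 in RBPJ and at -56 in SMAD3. OTX2 and SAMD3 hold GATA letters at -115 and -103 and no AP-1 letters in these bases. The starts of RBPJ and SMAD3 are each 1 of 5 starts listed for the gene. Those of SERPINB7 and SAMD3 are each 1 of 3, those of MAB21L4 and OTX2 each 1 of 2, and CPA4 has 1 listed start.

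The 2 stages differed at many more regions than the hDE replicates differed from each other. Of 129726 regions that were strict in at least 1 of the 7 libraries, 15685 were gained (12.1%), 11725 were lost (9.04%) and 17517 were stable, that is strict in all 3 libraries (13.5%). Pair by pair, 18794 strict regions of hPFE had no peak in hDE replicate 1 and 17534 had none in hDE replicate 2. In the other direction 15157 strict regions of hDE replicate 1 and 20743 of hDE replicate 2 had no peak in hPFE. Between the hDE replicates those numbers were 61 and 1201. With hDE replicate 2 alone standing for its stage, 17534 regions were gained and 20743 lost, so which direction held more regions turned on hDE replicate 1. It did not turn on hDE replicate 2, without which 18794 were gained and 15157 lost.

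**Figure D1:**
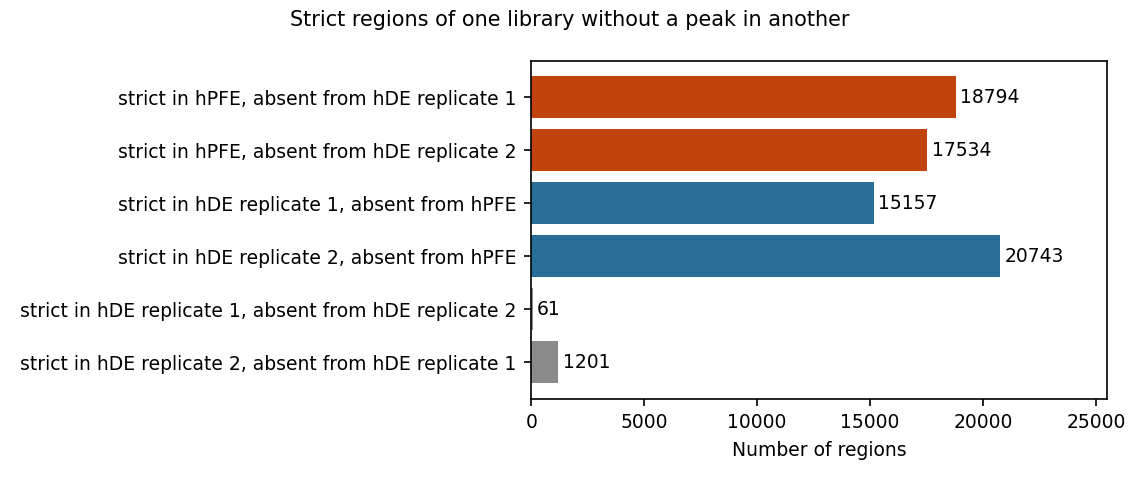
Number of regions (horizontal axis) that were among the 50000 strongest of one library and had no deposited peak in another, 1 bar for each ordered pair of the 3 libraries, with no error since each is 1 count. The bars between hPFE and hDE run from 15157 to 20743, and the 2 between hDE replicates are 61 and 1201.

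The libraries differed in depth and in how far their peaks stood above background. The genome-wide background, a measure of depth computed from the deposited peak values, was 4.58 and 7.94 counts in hDE replicates 1 and 2 and 5.66 in hPFE. The weakest deposited −log10 p was 2.64, 8.86 and 2.72 in the same order, so weak peaks of hDE replicate 2 are not in its list. Summit height, given below as a multiple of the genome-wide background of the library, had a median of 13.8 and 29.1 in the strict regions of the hDE replicates and 11.7 in those of hPFE, the lowest of the 7 libraries. In the stable regions the medians were 25.6 and 38.3 in hDE and 19.3 in hPFE. The part of these differences in the gained and lost regions was not tested.

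Few gained or lost regions met a gene start, whereas stable regions often did. A window from 250 bases before to 50 bases after a RefSeq gene start was met by 99 gained regions (0.631%), by 52 lost regions (0.443%) and by 8458 stable regions (48.3%), against 9.10% of all regions. The median distance to the nearest end of a protein-coding gene was 65.2 kb for gained, 75.1 kb for lost and 0 kb for stable regions. No gene end lay within 100 kb of 39.7% of gained and 42.4% of lost regions. Gene starts as a whole were open to a like extent, since 61.1% and 53.0% of the 22131 windows held a strict region in hDE replicates 1 and 2 and 61.7% in hPFE.

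The few gene starts that were gained often held AP-1 letters. AP-1 is a dimer of FOS and JUN family proteins that binds the palindrome TGANTCA. Of the 106 gained windows, which belong to 99 genes, 42 held it (39.6%). The share was 3 of 54 lost windows (5.56%), 3.46% of the 11527 stable windows and 1361 of all 22131 windows (6.15%). Gained windows had a mean GC content of 47.5%, close to the 49.1% of lost windows and below the 61.0% of all windows. Among windows of 40 to 55% GC, 26 of 54 gained (48.1%), 2 of 33 lost (6.06%) and 10.6% of all windows held the letters. In 28 of the 42 windows the nearest copy lay within 50 bp of the hPFE summit, at a median distance of 26.5 bp over the 42. Distances were not measured for other letters or other windows, so these values have no comparison. TEAD letters stood in 31.1% of gained, 22.2% of lost and 12.2% of all windows, and GATA letters (AGATAA) in 17%, 24.1% and 7.88%. FOX letters (TGTTTAC) were in 5.66% of gained and 5.56% of lost windows against 2.85% of all, and OTX letters (TAATCC) in 5.66%, 7.41% and 5.46%. Both strands were searched, no motif searched contains another, and a match of letters is a description and no binding site. Lost windows therefore had a low GC content like gained ones without the same share of AP-1 letters.

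**Figure D2:**
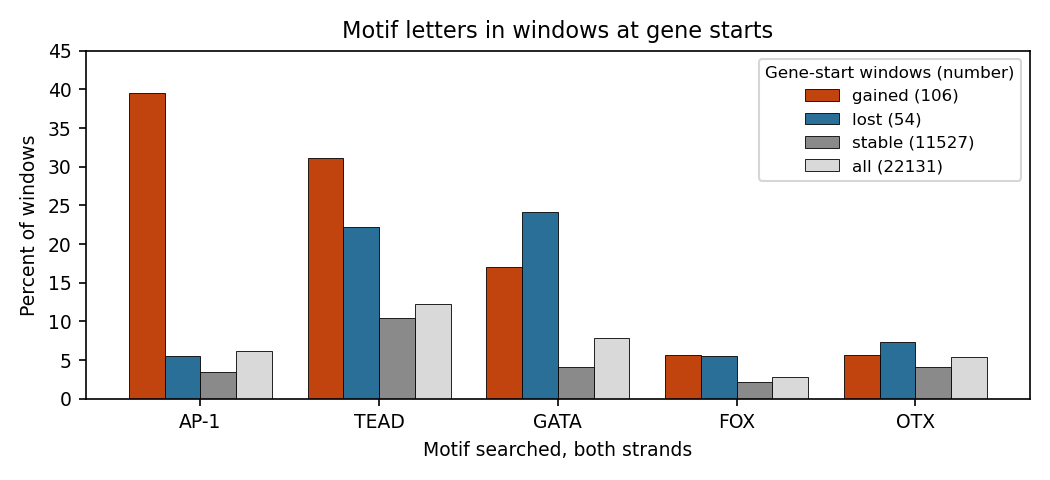
Percent of gene-start windows (vertical axis) that hold the letters of each motif (horizontal axis), for gained, lost, stable and all windows, with their numbers in the key and no error since each is 1 share. The AP-1 bar of the 106 gained windows reaches 39.6%, and that of all 22131 windows 6.15%.

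At the start of MAB21L4 shown above the region had no peak in either hDE library. It stood at 17.6 and 9.08 times background in hAFE replicates 1 and 2 and at 43.6 in hPFE. The start shown for SERPINB7, which encodes a serine protease inhibitor, had no peak in hDE or hAFE and stood at 30.7 in hPFE. That of CPA4, a carboxypeptidase, also had no peak in hDE or hAFE and stood at 22.6 in hPFE. At an internal start of RBPJ, the DNA-binding factor of Notch signalling, heights were 7.20 and 6.49 in hAFE and 17.1 in hPFE. Here the AP-1 letters lay 339 bp from the summit, the farthest of the 42, against 16 bp at SERPINB7 and 20 bp at MAB21L4. At an internal start of SMAD3, a transducer of Nodal and TGF-beta signals, heights were 6.75 and 4.15 in hAFE and 11.5 in hPFE. Of these 5 starts 3 had a peak in both hAFE libraries and 2 in none, while MAB21L4 had one in hESC replicate 1, at 7.11, and SMAD3 one in hESC replicate 2, at 4.54. The start shown for SAMD3 stood at 37.1 and 74.1 in hDE, 10.8 and 16.9 in hAFE and had no peak in hPFE. At a start of OTX2, a homeodomain factor of anterior endoderm and brain, heights were 35.2 and 29.3 in hDE and 19.4 and 13.2 in hAFE, again with no hPFE peak. Both lost starts thus stood lower in hAFE than in hDE. Both also had peaks in stem cells, at 12.8 and 9.09 in hESC replicates 1 and 2 for SAMD3 and at 15.2 and 37.0 for OTX2.

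To describe gene groups, each region was given to the protein-coding gene with the nearest end within 100 kb, which 89923 regions had. Of these 9452 were gained (10.5%) and 6750 lost (7.51%), so that 58.3% of the changed ones were gained. Without the regions within 1 kb of a gene end, 12.4% of the 73675 left were gained, 8.87% lost and 8.34% stable. The 22 gene lists differed widely around those shares.

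**Figure D3:**
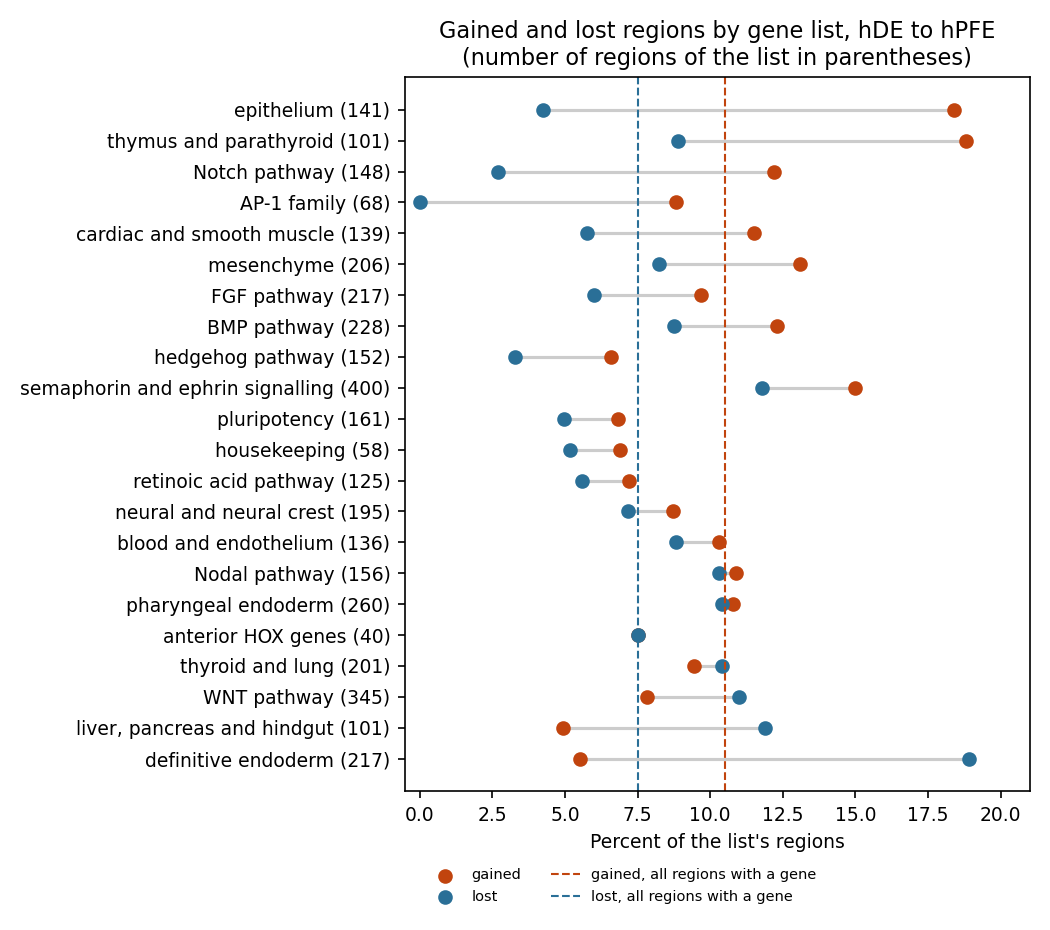
Percent of the regions of each gene list (horizontal axis) that were gained or lost from hDE to hPFE, 1 row for each of 22 lists with its number of regions, and dashed lines at the shares of all regions with a gene (10.5% gained, 7.51% lost). Definitive endoderm has the highest lost share (18.9%), and thymus and parathyroid (18.8%) and epithelium (18.4%) the highest gained shares; each point is 1 count and has no error.

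Regions near genes of definitive endoderm were lost more often than regions of any other list. Of the 217 regions of its 22 genes, 41 were lost (18.9%) and 12 gained (5.53%), and 15 of the 22 genes had at least 1 lost region. The median was 1 lost region for each gene of the list and 0 over all genes with a region. It was also 1 in the thyroid and lung, BMP and WNT lists. Over all, 4351 of the 17802 genes with a region had a lost one. Those genes shared 89923 regions, fewer for each gene than in the list, and more regions for a gene by itself raises such counts. Over 1 kb from gene ends 21.5% were lost and 6.45% gained. The list held 126 and 95 strict regions in hDE replicates 1 and 2, 80 and 75 in hAFE and 55 in hPFE. The number thus stood between hDE and hPFE in both hAFE libraries. EOMES, a T-box factor that starts the endoderm program, had 13 strict regions in each hDE library, 6 and 9 in hAFE and 4 in hPFE, with 5 lost and 1 gained. Its strongest lost region, chr3:27714061-27714525, lay just outside the gene, stood at 44.6 and 78.6 in hDE and had no peak in hAFE or hPFE. The 2 regions at the ends of EOMES stayed open but lower: the region at 0 bp from a gene end stood at 40.2 and 59.7 in hDE, 33.8 and 41.0 in hAFE, against 8.66 in hPFE, and the one at 36 bp at 47.8 and 68.8, 34.7 and 31.4, and 11.3. GSC, a homeodomain factor of the organizer and early endoderm, had 9 and 7 strict regions in hDE and 1 in hPFE, with 4 lost and 0 gained. Fewer regions were thus strict in hPFE at both genes, while hPFE still had a peak in 10 of the 15 regions of EOMES and 4 of the 11 of GSC.

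SOX17, an SRY-box factor needed for endoderm, had 7 and 4 strict regions in hDE, 4 and 6 in hAFE, against 1 in hPFE, with 1 lost region, and hPFE still had a peak in 8 of its 14 regions. FOXA2, a forkhead factor kept along the gut tube, had 11 and 8 strict regions in hDE and 5 in hPFE, with 3 lost and 1 gained. A lost and a gained region lay close together: chr20:22578906-22579697 stood at 48.7 and 61.6 in hDE, 19.8 and 23.6 in hAFE and had no hPFE peak, whereas chr20:22577770-22578278 had no hDE peak and stood at 15.8, 16.9 and 10.1 in hAFE replicates 1 and 2 and hPFE. The region at the FOXA2 gene end was open in all, at 37.4 and 61.2 in hDE and 17 in hPFE. A change of regions around FOXA2 was therefore listed beside an open gene end. GATA4 and GATA6, zinc-finger factors of endoderm and heart, had 3 lost regions each, with 1 gained at GATA4 and 2 at GATA6. Strict regions of GATA4 numbered 9 and 7 in hDE, 6 and 5 in hAFE, against 4 in hPFE. Those of GATA6 numbered 8 and 5, 5 and 1, and 6, so that hPFE lay between the hDE replicates. The strongest lost region of GATA4, chr8:11709713-11710457 inside the gene, stood at 49.2 and 60.8 in hDE and 8.55 and 6.49 in hAFE. That of GATA6, chr18:22159008-22159579, stood at 28.2 and 48.1 in hDE and had no peak in hAFE. Near CXCR4, the chemokine receptor used to sort definitive endoderm, 3 regions were lost and 0 gained, and 2 of the 3 still had peaks in both hAFE libraries. Strict regions of CXCR4 changed little in number, with 5 and 5 in hDE, 7 and 5 in hAFE, against 4 in hPFE. PRDM1, a transcriptional repressor, had the most lost regions of the list, 6, with 13 and 11 strict regions in hDE, 13 and 10 in hAFE, against 8 in hPFE. Unlike the strict regions of EOMES, those of PRDM1 were about as many in hAFE as in hDE.

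Genes of pharyngeal endoderm gained and lost regions in near-equal number. Of the 260 regions of 24 genes, 28 were gained (10.8%) and 27 lost (10.4%), against 10.5% and 7.51% of all regions with a gene. PAX1, a paired-box factor of the pouches, had 5 and 7 strict regions in hDE, 5 and 5 in hAFE, against 8 in hPFE, with 3 gained and 0 lost. All 3 gained regions of PAX1 had peaks in both hAFE libraries. The one nearest the gene, chr20:21725805-21726445, stood at 12.2 and 5.45 in hAFE and 15.5 in hPFE. At PAX9, the related factor, 9 and 9 strict regions in hDE and 9 in hPFE hid a turnover of 3 gained and 2 lost regions, all inside the neighbouring gene SLC25A21. The lost region chr14:36714375-36715142 stood at 23.2 and 35.9 in hDE, and the gained region chr14:36718290-36718569 stood at 11.1 in hPFE, with no hAFE peak in either. TBX1, a T-box factor of the pharynx, had 3 regions in all, of which 0 and 0 were strict in hDE, 2 and 0 in hAFE, against 2 in hPFE, and none was gained or lost. HOXA3, needed for the thymus and parathyroids, had 1 and 1 strict regions in hDE and 3 in hPFE, with 0 gained and 0 lost. NKX2-3, a homeodomain factor of the pharyngeal floor, had 6 and 0 strict regions in hDE and 5 in hPFE, so the hDE replicates themselves lay on both sides of hPFE.

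EYA1, a transcriptional coactivator of pouch development, went the other way. It had 6 and 6 strict regions in hDE, 7 and 6 in hAFE, against 2 in hPFE, with 2 lost and 1 gained. Its lost region chr8:71520194-71520813 stood at 23.4 and 49.5 in hDE and 32.9 and 21 in hAFE. This region was thus open in hAFE and had no peak in hPFE. MEIS2, a homeodomain factor, had 7 lost and 3 gained regions, and the related MEIS1 had 2 lost and 5 gained. The list as a whole is therefore no set of regions open in hPFE alone. The labelled stage could be checked only by open chromatin near its markers, and of PAX1, PAX9, TBX1, EYA1, HOXA3 and NKX2-3 only PAX1 and PAX9 had more than 1 gained region.

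**Figure D4:**
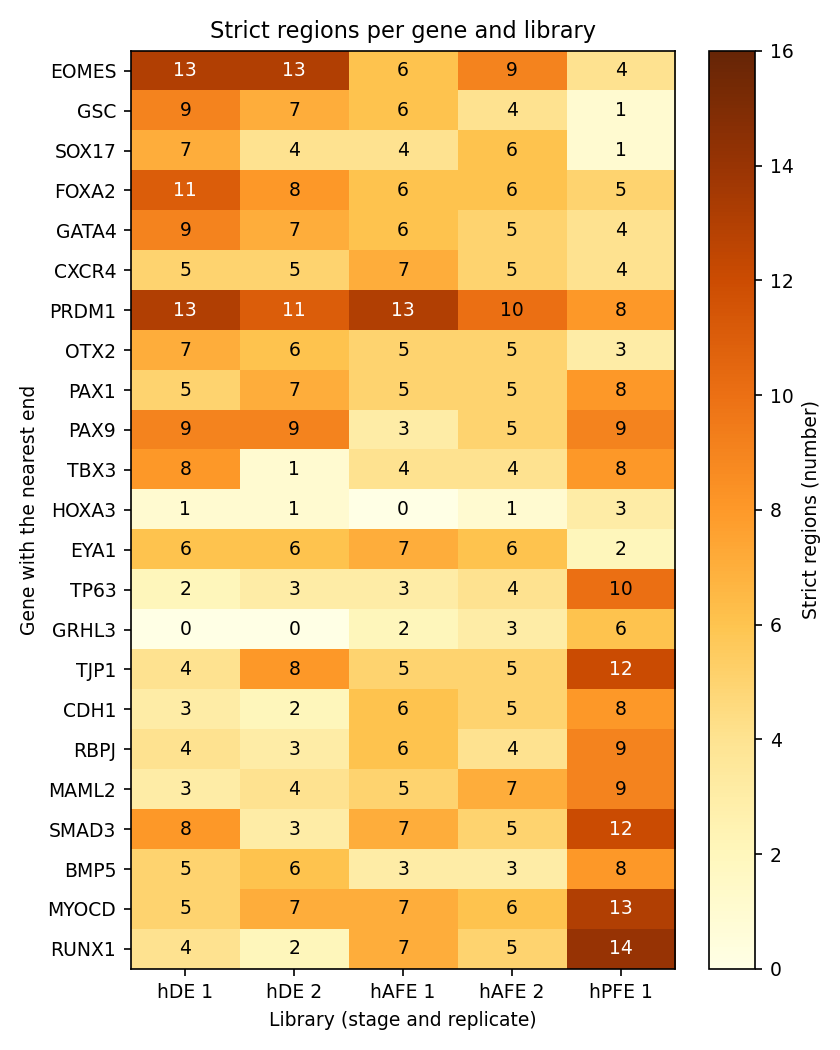
Number of strict regions (cell value and shade) assigned to each of 23 genes (rows) in each of the 5 libraries of hDE, hAFE and hPFE (columns). EOMES goes from 13 and 13 in hDE to 4 in hPFE and TP63 from 2 and 3 to 10; apart from the stage markers and the genes with the most changes, the genes were chosen after their values were seen.

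Epithelial genes had a high gained share and few losses. Of the 141 regions of 20 genes, 26 were gained (18.4%) and 6 lost (4.26%), and strict regions numbered 48 and 40 in hDE, 71 and 64 in hAFE, against 83 in hPFE. TP63, the p53-family factor of stratified epithelia and of thymic epithelium, held 8 of the 26, and it also holds 8 of the 19 gained regions of the thymus and parathyroid list. It had 2 and 3 strict regions in hDE, 3 and 4 in hAFE, against 10 in hPFE. Its strongest gained region, chr3:189572063-189572790, stood at 18.9 in hPFE with no peak in hDE or hAFE, and 4 of its 8 gained regions had no hAFE peak. GRHL3, a grainyhead factor of surface epithelium, had 0 and 0 strict regions in hDE, 2 and 3 in hAFE, against 6 in hPFE, with 4 gained. In hESC it had 5 and 6, so its low number was that of hDE. TJP1, a tight-junction scaffold, had 4 and 8 in hDE and 12 in hPFE, with 3 gained. CDH1, which encodes E-cadherin, had 3 and 2 in hDE, 6 and 5 in hAFE, against 8 in hPFE, with 1 gained and 0 lost. Not all epithelial genes did so, since KRT8, KRT5, KRT14, CLDN4, CLDN6 and CLDN7 had 0 gained and 0 lost. The number of strict regions of the list was thus higher in hAFE than in hDE and highest in hPFE.

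In the thymus and parathyroid list 19 of 101 regions were gained (18.8%) and 9 lost (8.91%), but TP63, BMP4 (4 gained, 0 lost) and FGFR2 (3 gained, 3 lost) hold 15 of the 19. BMP4 is a ligand and FGFR2 a receptor, and both act widely outside these organs. FOXN1, the master factor of thymic epithelium, had 1 gained region, whereas GCM2, the parathyroid factor, had no region strict in hDE, hAFE or hPFE. Most gained regions of the list thus lay at genes that are not specific to these organs. Among genes of the AP-1 family 6 of 68 regions were gained (8.82%), below the 10.5% of all regions with a gene, and 0 were lost, against 7.51%. The 6 lay 1 each at FOS, FOSL1, FOSL2, JUN, JUNB and BATF.

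Notch pathway genes had a low lost share, as hedgehog pathway genes did (3.29%). Notch receptors, once bound by ligands such as JAG1, release a fragment that joins RBPJ and a MAML protein on DNA. Of the list's 148 regions 18 were gained (12.2%) and 4 lost (2.70%), with 51 and 33 strict regions in hDE and 76 in hPFE. RBPJ held 8 of the gained regions and 0 lost, with 4 and 3 strict regions in hDE and 9 in hPFE. Its strongest gained region by −log10 p was chr4:26116078-26116498 inside the gene, at 21.9 in hPFE and 3.37 in hAFE replicate 2, with no peak in hAFE replicate 1. MAML2 had 3 gained regions and HEY1, a target, 2, with 0 lost at both. The ligand JAG1 had 2 gained and 2 lost, and of the receptors NOTCH2 had 1 gained and 1 lost, NOTCH3 0 and 1, and NOTCH1 and NOTCH4 0 and 0. RBPJ alone thus held 8 of the 18 gained regions, and the targets HES1 and HEY2 had 0 gained and 0 lost.

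WNT pathway genes went the other way, with 38 of 345 regions lost (11.0%) and 27 gained (7.83%). The WNT co-receptor ROR2 had 4 lost and 2 gained regions, and its strict regions numbered 20 and 8 in hDE and 6 in hPFE. AXIN2, a feedback target of WNT, had 3 lost and 0 gained. SFRP2, a secreted WNT inhibitor, had 5 and 4 strict regions in hDE and 0 in hPFE, with 2 lost. WNT receptors, targets and inhibitors were thus all among the genes with losses. Of the 29 genes of the list 18 had a lost region and 15 a gained one. Over all 17802 genes with a region 4351 and 5533 did, but these had fewer regions for each gene than the list. The counts of genes are therefore not alike in that respect. Genes with more gained than lost regions included FZD1 (3 gained, 2 lost) and DKK3 (2 gained, 0 lost).

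In the Nodal pathway 17 of 156 regions were gained (10.9%) and 16 lost (10.3%), and members differed in direction. The ligand NODAL and its inhibitors LEFTY1 and LEFTY2 had 8 and 4 strict regions together in hDE and 0 in hPFE. LEFTY2 had 2 lost regions, whereas NODAL and LEFTY1 had 0 gained and 0 lost. In hPFE a peak was still found in 1 of the 3 regions of NODAL, 2 of the 3 of LEFTY1 and 1 of the 6 of LEFTY2. SMAD3 had 8 and 3 strict regions in hDE and 12 in hPFE, with 5 gained and 1 lost. FST, an inhibitor of activin, had 4 gained and 1 lost. PCSK5, a protease that processes ligands of the family, had 5 lost and 3 gained. The BMP pathway list, with 28 of 228 regions gained (12.3%) and 20 lost (8.77%), also split by member. Among its ligands BMP5 had 6 gained and 0 lost and BMP4 4 and 0, whereas BMP2 had 0 gained and 4 lost. The strongest gained region of BMP5, chr6:55734169-55734903, stood at 6.75 and 8.57 in hAFE and 30.2 in hPFE. The strongest lost region of BMP2, chr20:6848793-6849565, stood at 39.5 and 63.7 in hDE and 7.65 and 4.15 in hAFE. A pair of BMP5 regions that were open at both stages nonetheless stood lower in hPFE, at 8.66 and 12.9 against 25.1 and 39.3 in hDE replicate 1 and 60.5 and 64.9 in hDE replicate 2. Regions of 1 gene thus differed in direction.

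Semaphorin and ephrin signalling, which guides migrating cells, had the most changed regions, 60 gained (15.0%) and 47 lost (11.8%) of 400. EFNA5, a ligand, had 8 gained and 2 lost, and its receptor EPHA4 had 4 gained and 9 lost. PLXNA2, a semaphorin receptor, had 16 and 15 strict regions in hDE, 9 and 8 in hAFE, against 6 in hPFE, with 9 lost and 4 gained. Its lost region chr1:208280264-208281224 stood at 50.5 and 73.6 in hDE and at 4.67 in hAFE replicate 2. The list was thus high in both directions.

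Over all genes, 5533 had a gained and 4351 a lost region. PRICKLE2, a planar cell polarity gene, had the most gained regions, 10 of 27, with 8 and 5 strict regions in hDE, 8 and 9 in hAFE, against 18 in hPFE. MAP2 (a microtubule protein), DSC1 (a desmosomal cadherin), CDC42EP3 (an effector of CDC42), VMP1 (an autophagy membrane protein), MYOCD (a coactivator of smooth muscle genes), RUNX1 (a transcription factor) and PDGFC (a growth factor) followed with 9 each. VMP1 had 1 and 1 strict regions in hDE, 5 and 2 in hAFE, against 13 in hPFE, and DSC1 3 and 3, 4 and 3, and 11. Of these 8 genes MYOCD and VMP1 had 0 lost regions. Among the genes with the most lost regions were PLXNA2, EPHA4 and AMPH (a protein of endocytosis), 9 each, TNR (tenascin R) and DIAPH3 (a formin), 8 each, and KHDRBS3 (an RNA-binding protein), 7. AMPH had 16 and 18 strict regions in hDE, 7 and 13 in hAFE, against 3 in hPFE, and TNR 15 and 15, 6 and 5, and 3. These 6 genes had 20 to 34 regions each.

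The 5 strongest gained regions stood at 39.2 to 54.6 in hPFE. The first, chr2:236769690-236770494, lay 187336 bp from the nearest gene end and stood at 14.9 and 10.1 in hAFE and 54.6 in hPFE. The others lay in ASB5, KCTD1 and ZNF507 and outside CARD16, and the one in KCTD1, chr18:26616983-26617739, had no hAFE peak and stood at 42.4 in hPFE. Of the 5 strongest lost regions 4 had no gene end within 100 kb, and the one in ARAP2, chr4:36026255-36026903, stood at 59.9 and 112 in hDE and 7.65 and 12.2 in hAFE. No hPFE peak was listed at any of these lost regions, by the rule.

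Read at the step between, gained and lost regions both had hAFE peaks less often than regions as a whole. Of regions as a whole, 22.2% had none in either hAFE library and 63.9% had one in both. Regions as a whole were drawn from all 7 libraries, and 28.7% of them were strict in both hAFE libraries. Their higher share of hAFE peaks is therefore partly set by that choice. Of the gained regions 57.4% had no peak in either hAFE library, 19.4% had one in 1 and 23.2% in both, and 4.76% were strict in both. Of the lost regions 31.2% had no peak in either hAFE library, 20.3% in 1 and 48.5% in both, and 12.2% were strict in both. Where hAFE had a peak, the median height was 8.55 and 5.71 in gained regions and 10.8 and 6.49 in lost regions. Stable regions stood at 62.6 and 40.7 in hAFE, and 98.7% had peaks in both hAFE libraries. The hAFE libraries had a lower background (2.22 and 3.85) than the hDE and hPFE libraries, and its part in these shares was not tested. Nor was that of the unlike rules: a gained region had to be strict in the single hPFE library, a lost one in both hDE libraries. Where hAFE had them, gained and lost regions thus stood far below stable ones. That was not particular to hAFE, since they stood below stable regions at their own stage too. Gained regions had a median of 9.18 in hPFE, against 19.3 in stable ones. Lost regions had 11.6 and 31.6 in hDE replicates 1 and 2, against 25.6 and 38.3.

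Gained regions for the most part had no listed peak in stem cells. The hESC libraries had a background of 2.11 and 4.62 and a weakest deposited −log10 p of 2.23 and 4.77. The part of these values in the shares below was not tested. In hESC 81.0% of gained regions had no peak in either library and 5.43% had one in both, against 30.6% and 55.4% of all regions. As 27.6% of all regions were strict in both hESC libraries, this comparison too is partly set by how the regions were drawn. Of the lost regions 45.9% had no hESC peak and 36.5% had one in both. A peak in both hESC and both hAFE libraries was found for 26.8% of lost regions, 43.0% of all regions and 3.42% of gained regions. Of the lost regions, 22% had a peak in neither hESC nor hAFE and were thus listed in hDE alone of the 4 stages. The same held for 51.6% of gained regions, listed in hPFE alone, and 12.7% of all regions had a peak in neither hESC nor hAFE. Gained and lost regions were called by unlike rules, since only lost regions had to be strict in both replicates of a stage. The part of that in these shares was not tested.

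**Figure D5:**
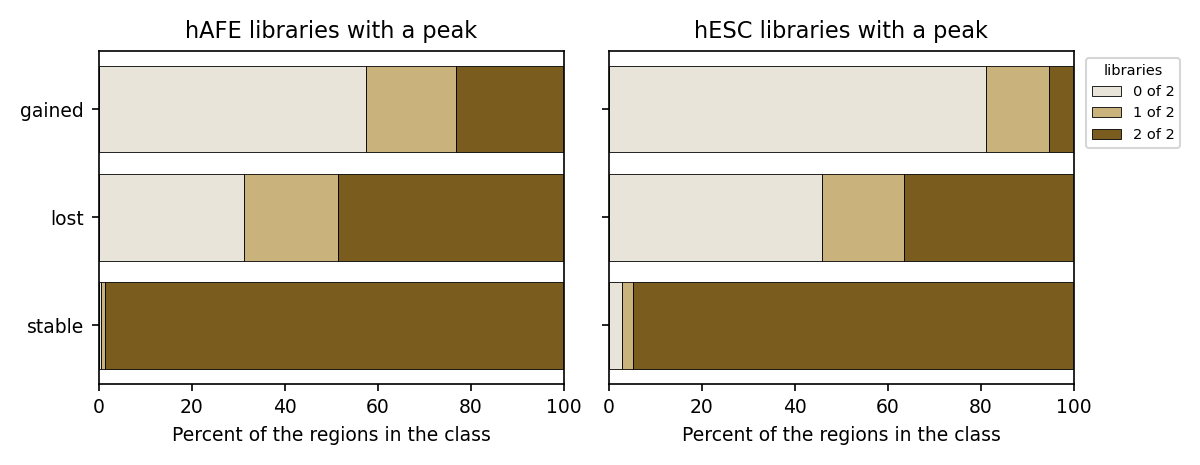
Percent of gained, lost and stable regions (horizontal axis) with a deposited peak in 0, 1 or 2 libraries of hAFE (left) and of hESC (right). Gained regions lack a peak in both hAFE libraries in 57.4% and lost regions in 31.2%. Gained regions were strict in the single hPFE library and lost regions in both hDE libraries, so the classes were called by unlike rules.

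Among stable regions, heights were compared after centring each pair on its median log2 difference, which was -0.42 for hPFE minus hDE replicate 1 and -1.05 for hPFE minus hDE replicate 2. The centred differences had an SD of 0.56 and 0.71, against 0.54 between the hDE replicates, whose median difference was 0.64 for replicate 2 minus replicate 1. By at least 2-fold against both hDE libraries, 245 stable regions were higher in hPFE and 461 lower. Taken pair by pair, 750 were higher and 601 lower in hPFE than in hDE replicate 1, 948 and 1657 than in hDE replicate 2, and 809 and 217 in hDE replicate 2 than in replicate 1. Such differences were thus also found between replicates, in numbers of the same order. Among them were regions of listed genes. The end of CDH1 stood at 22.9 and 26.2 in hDE and 35.9 in hPFE. A region 35647 bp from DSP, a desmosomal gene, stood at 14.6 and 33.3 in hDE and 35.7 in hPFE. Lower were, beside EOMES, the ends of DKK1 (32.3 and 65.4 in hDE, 9.89 in hPFE) and SP5 (37.8 and 47.6, 10.8), an inhibitor and a target of WNT signalling. Other WNT pathway genes had a higher region, namely DKK3 (9.61 and 18.0 in hDE, 20.1 in hPFE), LGR5 (12.7 and 23.8, 26.0) and FZD2 (12.5 and 22.4, 26.0). Also lower was a region near SPRY2, an FGF antagonist (38.9 and 70.8, 7.24). The endoderm genes FOXA2 and OTX2 also had a lower region each.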

How the data were processed

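Groups and replicate numbers came from the sample titles. Members and gene lists were chosen with earlier results of these data known. Each file is 1 library's peak list, none pooled, and per the submitters' processing notes the build was hg38 and DiffBind was used, with no version given. Tokens in the deposited names record that duplicates and mitochondrial reads were removed, that Tn5 cut sites were used, and that the peaks kept met a limit of 0.01 on p and of 300000 in number, then were filtered. Aligner and caller names were not given in the sources used here. Each deposited peak carries a fold enrichment over a local background, a ratio, with a −log10 p and a −log10 q that depend on depth. The deposited score, a display value, was not used, and the deposited summit offset gave distances.

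Overlapping peaks of a library were merged and ranked by their highest −log10 p, and the first 50000 were called strict. On chromosomes 1 to 22 and X, strict regions from the 7 libraries were joined where they shared at least 1 bp. Summit pileups and backgrounds were recovered from fold and −log10 p, to within 0.001, in 100% of regions of each library. The most frequent background among weaker regions served as the genome-wide one, since depth in reads was not used here. RefSeq tables of GRCh38.p14 gave 19970 protein-coding genes without exons, so exons, introns and UTRs were not told apart, and starts of 15811 genes. No test was made. The 407 listed genes, of which 401 had a region, were matched by symbol and 1 by synonym. Genes named were the stage markers, 8 genes per direction with the most gained or lost regions, and in each list the gene with the most in each direction where it had at least 2. Other genes were named after their values were seen. Some genes that the rule names are not reported here. Calls and pileups were checked on simulated data. Python 3.11.15, NumPy 2.4.6, pandas 2.3.3, SciPy 1.17.1 and matplotlib 3.10.9 were used.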

Additional observations from a re-analysis of the deposited data

How the results depend on the processing

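Counts moved with the number of strict regions. With 25000 per library 5418 regions were gained, 4055 lost and 9141 stable, with 100000 these were 41265, 30434 and 34454, and where −log10 q reached 5 they were 35613, 34668 and 36342. With summits of at least 10 times background 6869 were gained. Of the changed regions with a gene 42.5% were gained in that setting, against 58.3% in the main one, so that more were lost. With a replicate of hDE left out the lost regions were 15157 to 20743. The percent of gained regions with no hAFE peak was 51.1, 64.7, 63.4 and 52.3 under those 4 settings, 60.6 where absent meant outside the 200000 strongest, and 52.3 to 53.9 with a replicate of hDE left out. For lost regions it was 26.3, 35.0 and 33.7 under the first 3, 35.0 outside the 200000 strongest and 30.7 to 39.1 with a replicate left out. AP-1 letters stood in 30.1% of gained windows with 100000 strict regions. From the deposited fold 22 stable regions were higher and 137 lower in hPFE, and with a replicate of hDE left out 1054 to 1064 were higher and 723 to 1674 lower.

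The gained share of a list's changed regions, less that of all regions, was compared in percentage points. It moved to 26.1 for thymus and parathyroid and 5.13 for epithelium with 25000 strict regions, and to -21.5 and -19.9 for definitive endoderm with 100000 and by −log10 q. It turned for thyroid and lung, to 3.90 with 100000, 0.316 by height and 4.65 within 50 kb. It also changed sign in at least 1 alternative for the other 13 lists that are not named in the next sentence, such as thymus and parathyroid (-1.85 to 26.1, 9 of 10 kept), FGF (-11.4 to 30.4), hedgehog (-8.99 to 10.3), cardiac and smooth muscle (-6.83 to 21.5), blood and endothelium (-8.04 to 21.1) and retinoic acid (-2.29 to 41.5). Its sign held in 10 of 10 alternatives for definitive endoderm, pharyngeal endoderm, liver, pancreas and hindgut, Nodal, WNT, Notch, AP-1 family and epithelium. Counts at named genes moved by over 1.5 times in 227 of their values and did not in 483. Over the 10 alternatives EOMES had 1 to 6 lost regions and CXCR4 2 to 5, and gained regions numbered 2 to 13 at TP63, 3 to 9 at RBPJ, 2 to 9 at BMP5, 2 to 7 at PAX1 and 4 to 14 at PRICKLE2. The alternatives for lists away from gene ends, for AP-1 letters and for named genes were chosen after seeing the data. No paired analysis was possible because hPFE has 1 library, so hDE and hPFE share fewer than 2 replicate numbers. The cause was not tested for any of these changes. Counts for hPFE rest on 1 library, and a region without a listed peak may still hold signal.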

Other observations

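Genes of other cell types that the cultures could hold were counted by strict regions at both stages. Mesenchyme genes had 79 and 65 strict regions in hDE and 78 in hPFE, with 27 gained (13.1%) and 17 lost (8.25%) of 206, both above the 10.5% and 7.51% of all regions with a gene. VIM, which encodes vimentin, had 3 gained and 0 lost, and COL1A2, a collagen gene, 1 gained and 4 lost. Cardiac and smooth muscle genes had 47 and 48 in hDE and 45 in hPFE, with 16 of 139 gained (11.5%), 9 of them at MYOCD. Blood and endothelium genes had 43 and 48 in hDE and 48 in hPFE, with 14 of 136 gained (10.3%), 9 of them at RUNX1, whereas KDR, an endothelial receptor gene, had 4 lost and 0 gained. Neural and neural crest genes had 87 and 68 in hDE and 67 in hPFE, and pluripotency genes 63 and 46 against 37. Genes of liver, pancreas and hindgut, organs that form behind the pharynx, had 41 and 36 in hDE and 30 in hPFE, with 5 gained (4.95%) and 12 lost (11.9%) of 101. The part of other cells in the gained regions was not tested.

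The remaining lists had gained shares below the 10.5% of all regions with a gene. FGF pathway genes had 21 gained (9.68%) and 13 lost (5.99%) of 217 regions, retinoic acid genes 9 (7.20%) and 7 (5.6%) of 125, and hedgehog genes 10 (6.58%) and 5 (3.29%) of 152. Anterior HOX genes had 3 and 3 of 40 (7.50% each), thyroid and lung genes 19 (9.45%) and 21 (10.4%) of 201 and housekeeping genes 4 (6.90%) and 3 (5.17%) of 58. FGFR2, a receptor, had 3 gained and 3 lost. Ligands of the FGF list differed, since FGF8, FGF17 and FGF19 together had 9 and 4 strict regions in hDE and 0 in hPFE. Of these only FGF17 had lost regions, 2, and hPFE still had a peak in 3 of the 4 regions of FGF8 and 5 of the 6 of FGF19. By contrast FGF9 had 5 and 6 strict regions in hDE against 6 in hPFE, FGF10 4 and 8 against 4, FGF18 3 and 1 against 4 and FGF3 0 and 0 against 2. SPRED1 and SPRY1, antagonists of FGF signals, had 3 gained regions each, with 1 and 0 lost.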
